A study of Mus musculus with 12 samples.

Results

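The genes described here code for the enzymes that build triglyceride from glycerol 3-phosphate and fatty acids, and for the enzymes that make glycerol 3-phosphate in fat: Gpd1, Pck1, Gpam, Agpat2, Lpin1, Lpin2, Lpin3, Dgat1, Dgat2 and Pnpla3. They were found by gene symbol, and all 10 of 10 had a probe set among the 23185 genes measured. Abdominal fat came from BKS.Cg-Dock7m +/+ Leprdb/J mice. They carry a mutated leptin receptor and become obese and diabetic. This background was shared by all groups, including the controls, although the labels' genotype field calls the controls WT. Adenovirus that codes for short hairpin RNA (shRNA) was given at an age of 12 weeks, and the animals were killed 1 week later. The control group received 4e9 plaque-forming units (pfu) of control shRNA virus. The LCN13 group received 2e9 pfu of LCN13 shRNA virus with 2e9 pfu of control virus, and the TSC22D4 group received 2e9 pfu of TSC22D4 shRNA virus with 2e9 pfu of control virus. The combined group received 2e9 pfu of each of these gene-directed viruses and no control virus. Each group held 7 animals, of which 3, described in the design as representative, were put on Affymetrix arrays, giving 12 arrays in all. A comparison with control therefore sets a gene-directed shRNA against a larger amount of control virus, and the effect of adding the first and of removing the second cannot be told apart. The TSC22D4 and LCN13 groups received equal amounts of control virus. An effect of 1 shRNA averaged over the other also sets groups with less control virus, on average, against groups with more. Neither the route of injection nor the cells reached by the virus are stated in the sources.

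In the textbook pathway, GPAM (a mitochondrial glycerol 3-phosphate acyltransferase) adds the first fatty acid to glycerol 3-phosphate and AGPAT2 adds the second, giving phosphatidate. Lipins remove its phosphate to give diacylglycerol, and the DGAT enzymes add the last fatty acid. Adipocytes have little glycerol kinase, so their glycerol 3-phosphate comes from glycolysis or from pyruvate, with GPD1 as the last step of both routes. The route from pyruvate through PCK1 is called glyceroneogenesis and re-esterifies fatty acids released during fasting. PNPLA3 is a patatin-like phospholipase domain protein of lipid droplets whose gene, like Gpam, is known to be induced by feeding and by the lipogenic transcription factor SREBP1.

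Values were deposited as log2 levels per probe set, so a difference of 1 is a doubling. A gene was called where the adjusted p from limma, with Benjamini-Hochberg adjustment over all 23185 genes, was below 0.05. Pearson correlations over all genes lay between 0.9936 and 0.9978 for arrays within a group. Neither shRNA target was seen to fall. Tsc22d4 levels were 7.56 to 7.74 in the TSC22D4 group and 7.57 to 7.88 in the control group. The LCN13 gene, listed as Obp2a, lay at 5.71 to 5.79 on the 12 arrays, near the lowest value of the table, so a fall could not have been seen. Adipocyte markers were high, with Adipoq at 12.20 to 12.45 on every array. LCN13 replicates 5 and 6 stood apart through mesothelial genes, whose mean deviation from the average of the 12 arrays was 0.63 and 0.64, against -0.36 to 0.07 on the other arrays. Several differences that involve the LCN13 group are also given without these arrays, in which case replicate 8 is left to stand for the LCN13 group and is assumed to vary like the other groups.

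With TSC22D4 shRNA, most genes of the pathway had higher mean levels than with control virus, and Lpin1 was the member that passed the test (0.44 on the log2 scale, SE 0.08, adjusted p = 0.0415). Called genes were 1 of the 10 members against 1.17% of all genes in this comparison. Of the members, 9 had differences above 0, and their median difference was 0.26 against 0.00 over all genes. At an unadjusted p below 0.05 the counts were 7 of 10 members and 11.8% of all genes. All genes include many dim ones, whereas the members lay at the 56.5th percentile of mean level (Lpin3) or higher. With only the 11592 probe sets above the median level in the fit, 1877 had an unadjusted p below 0.05. The members were chosen with earlier results of these data known, so these counts only describe them. Pck1 lay on the other side of 0, at -0.43 (adjusted p = 0.639). In the bulk tissue, a change in the number of adipocytes and a change in RNA per adipocyte cannot be told apart. The 10 measured adipocyte markers had mean deviations of -0.10 to 0.09 on the 12 arrays, and the group means were 0.02 (control), 0.01 (LCN13), -0.02 (TSC22D4) and -0.01 (combined).

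**Figure D1:**
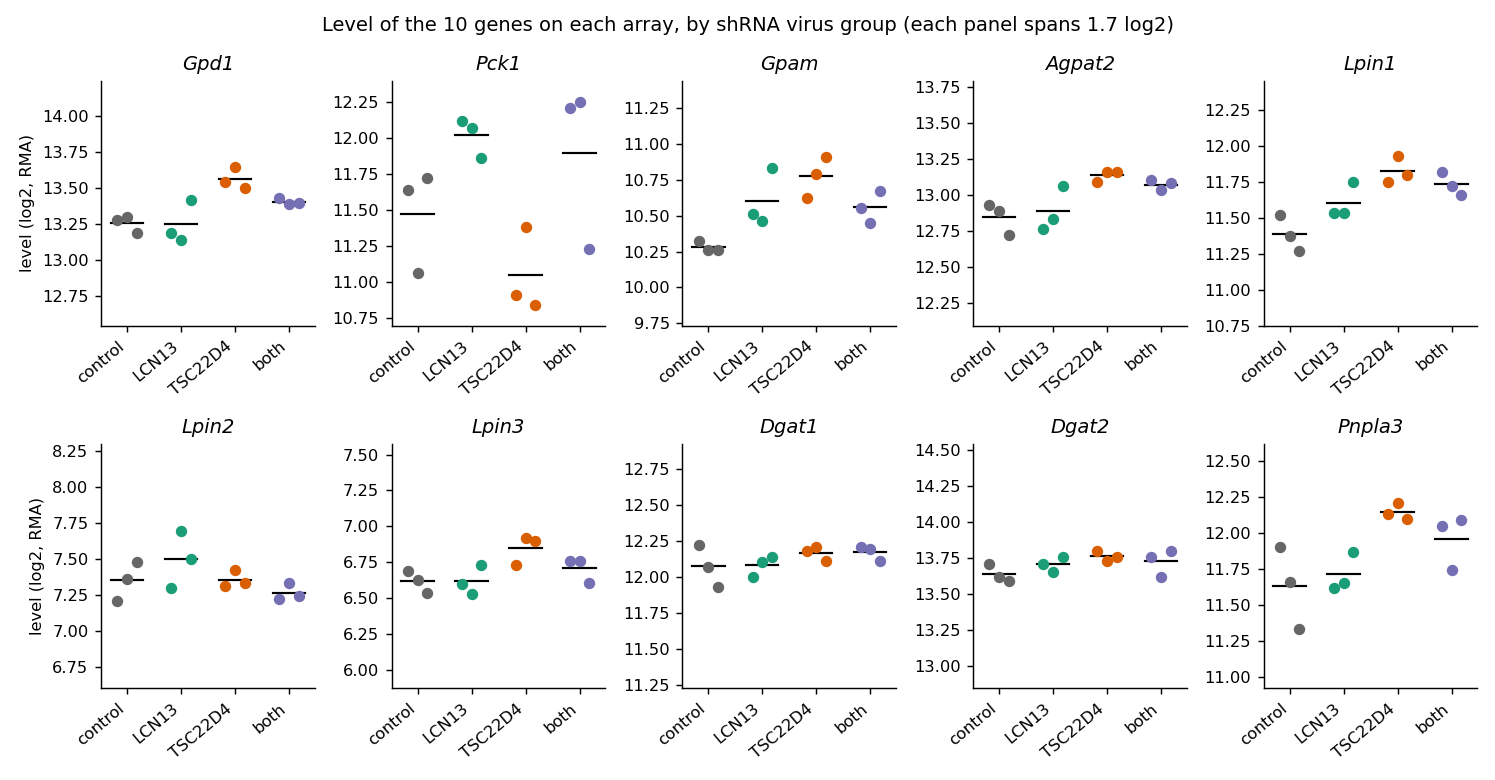
Log2 level (RMA) of each gene on the 12 arrays, with 1 point per array, a line at the group mean, and the same span of the vertical axis in every panel ("both" is the combined group). The TSC22D4 arrays lie above all control arrays for Gpd1, Gpam, Agpat2, Lpin1, Lpin3, Dgat2 and Pnpla3, whereas the Pck1 levels of the TSC22D4 group (10.84 to 11.38) lie below all LCN13 levels (11.86 to 12.12). The share of all genes without overlap was not counted, so the separation of these genes has no baseline here and is only described. By another measure, 11.8% of all genes had an unadjusted limma p below 0.05 between TSC22D4 and control.

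Gpd1 codes for the cytosolic glycerol 3-phosphate dehydrogenase, which makes glycerol 3-phosphate from a glycolytic intermediate. Its log2 levels were 13.28, 13.30 and 13.19 in the control group, 13.19, 13.14 and 13.42 in the LCN13 group, 13.54, 13.65 and 13.50 in the TSC22D4 group, and 13.43, 13.39 and 13.40 in the combined group. The TSC22D4 arrays were all above those of the other groups, and the combined arrays lay above all control arrays. The difference between TSC22D4 and control was 0.31 (1.24-fold, 95% interval 0.15 to 0.46, adjusted p = 0.0831), and that between TSC22D4 and LCN13, at equal amounts of control virus, was 0.32 (interval 0.16 to 0.47, adjusted p = 0.0707). Neither passed. Without LCN13 replicates 5 and 6 the latter difference was 0.14 (adjusted p = 0.655), since the remaining LCN13 array had the highest Gpd1 level of its group. Without LCN13 replicate 8 it was 0.40 (adjusted p = 0.0109), which is larger by construction because the array left out was the highest of its group. The difference from control stayed at 0.31 and passed too (adjusted p = 0.0111). For each of these it was the 1 of 12 single-array fits that passed. Adjusted p-values in these fits ran up to 0.204 against LCN13 and 0.246 against control. The same omission raised the calls over all genes from 239 to 582 and from 272 to 350.

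Pck1, the cytosolic phosphoenolpyruvate carboxykinase of glyceroneogenesis, had the widest spread of the members, with 1.41 log2 units between its lowest and highest array. This range was wider than that of 98.6% of all genes. Levels of Pck1 were 11.64, 11.06 and 11.72 in the control group, 12.12, 12.07 and 11.86 in the LCN13 group, 10.91, 11.38 and 10.84 in the TSC22D4 group, and 12.21, 12.25 and 11.23 in the combined group. The LCN13 arrays were all above the control and TSC22D4 arrays, while the combined group was split, with replicates 13 and 14 the highest of all arrays and replicate 16 among the TSC22D4 levels. The group means were ordered TSC22D4 (11.04), control (11.48), combined (11.90) and LCN13 (12.02). Between TSC22D4 and LCN13 the difference was -0.98 (1.97-fold lower with TSC22D4 shRNA, interval -1.62 to -0.34), which did not pass over all genes (adjusted p = 0.127 with limma). Without LCN13 replicates 5 and 6 it was -0.82 (adjusted p = 0.716).

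Averaged over TSC22D4 shRNA, arrays with LCN13 virus had Pck1 levels 0.70 higher than those without it (1.62-fold, interval 0.25 to 1.15, adjusted p = 0.166). The groups with LCN13 virus received 2e9 pfu or none of control virus, and those without it 4e9 or 2e9 pfu. Adding LCN13 shRNA and removing control virus cannot be told apart in this contrast. Of the 6 arrays with LCN13 virus, 5 lay above all 6 without it. The exception was combined replicate 16, and without that array the difference was 0.87 and passed (adjusted p = 0.0394). Leaving out the exception enlarges the difference by construction, so this pass is no support. It was the 1 of 12 single-array fits that passed, and the adjusted p in these fits ran up to 0.317. Without LCN13 replicates 5 and 6 the difference was 0.62. None of the 10 members was called in this comparison, against 1.08% of all genes, and the members' median difference was 0.01.

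Pck1 is also abundant in liver, so liver markers were set beside it. The 9 measured liver markers had mean deviations of 0.34, 0.41 and 0.01 on the LCN13 arrays, 0.38, -0.35 and -0.19 on the combined arrays, -0.34 to 0.06 on control arrays and -0.18 to -0.04 on TSC22D4 arrays. Albumin (Alb), the defining liver transcript, had the widest range of these markers over the 12 arrays, from 7.98 to 11.46. Cyp2e1 (8.99 to 10.92) and Apoc3 (6.86 to 8.31) came next. The narrowest ranges were those of Fgb (5.86 to 6.15), Hp (13.64 to 13.93) and Apoa1 (6.11 to 6.44). Whether any single liver marker followed Pck1 from array to array was not tested. Liver means and Pck1 were both high on LCN13 replicates 5 and 6 and on combined replicate 13, where Pck1 was 12.12, 12.07 and 12.21, whereas combined replicate 14, with Pck1 at 12.25, had a liver mean of -0.35. On LCN13 replicate 8, which lacked the high mesothelial markers (-0.19) and had a liver mean of 0.01, Pck1 was 11.86. None of the liver, mesothelial or adipocyte markers was called higher or lower in any contrast between groups, and the part of liver or mesothelial RNA in the Pck1 differences was not tested.

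**Figure D2:**
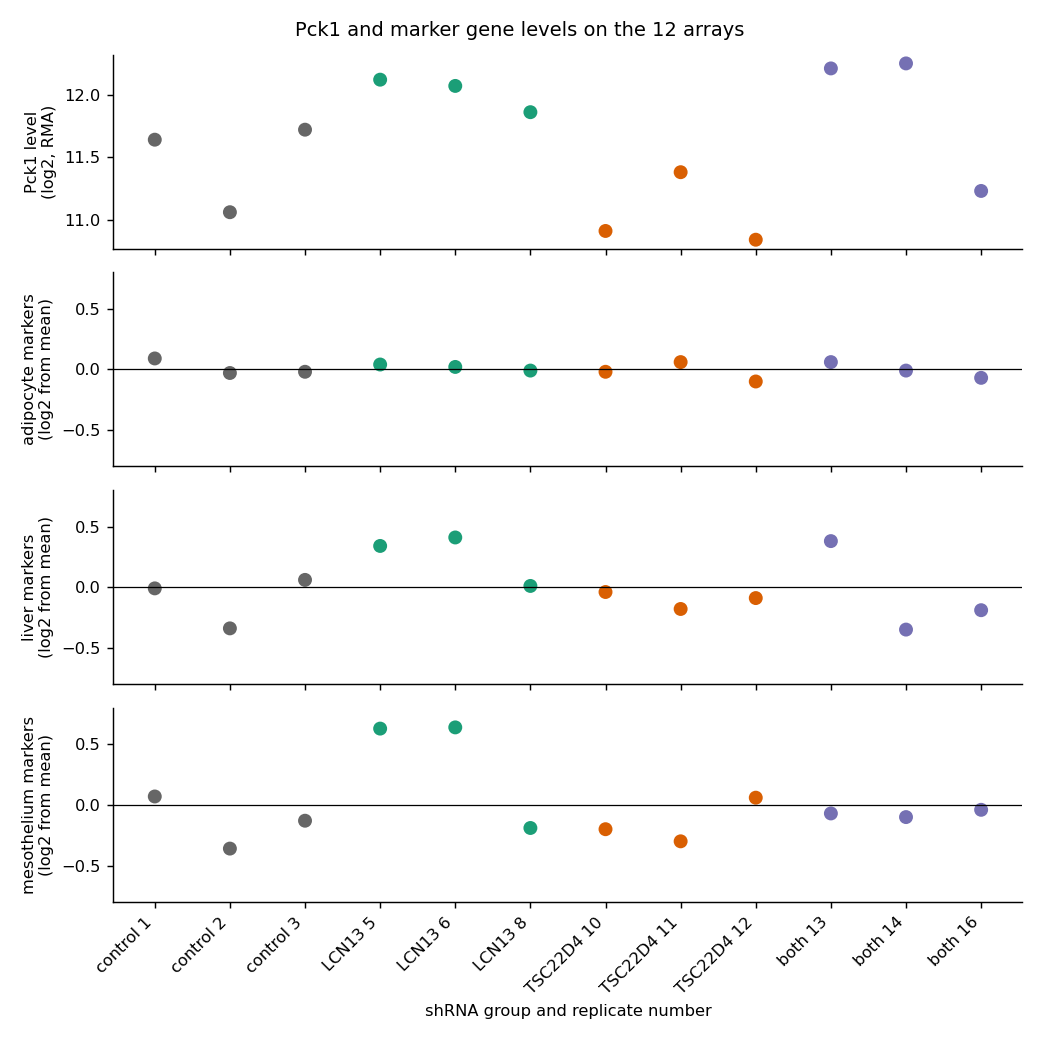
Pck1 log2 level (top) and the mean deviation of adipocyte, liver and mesothelial marker genes from their average over the 12 arrays (log2), with 1 point per array and replicate numbers on the horizontal axis ("both" is the combined group). Pck1 is high on LCN13 arrays and on combined replicates 13 and 14, mesothelial markers are high on LCN13 replicates 5 and 6, and adipocyte markers stay between -0.10 and 0.09.

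The promoter of Pck1 is a known target of cyclic AMP signalling, and its sequence is shown because Pck1 had the opposite sign to most members with TSC22D4 shRNA. The 250 bases before its start in the RefSeq promoter table (GRCm38.p6, chr2:173152823-173153072, plus strand, 50.8% G and C) are given 5′ to 3′, with a match to ACGTCA, the core of the cyclic AMP response element, in capitals.
Pck1: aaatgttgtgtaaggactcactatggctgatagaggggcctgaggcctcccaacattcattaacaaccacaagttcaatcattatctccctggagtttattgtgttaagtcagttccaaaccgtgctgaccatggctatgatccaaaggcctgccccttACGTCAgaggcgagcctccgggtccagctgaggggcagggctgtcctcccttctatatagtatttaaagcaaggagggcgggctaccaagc
The match lies 91 to 86 bases before the start. Both strands of the 250 bases before each start in the table were searched for 4 motifs, and 7 of the 10 members had 11 starts there. Gpd1, Dgat1 and Dgat2 were not matched. ACGTCA was found before 3 of the 11 starts, belonging to Gpam, Pck1 and Pnpla3, and in 6.47% of the 32851 promoters of the table. In the Pnpla3 window there were 2 matches that overlap on opposite strands, 46 to 41 and 44 to 39 bases before its start. CCAAT, the NF-Y box, was found before 3 of the 11 starts (Gpam, Lpin2 and Pnpla3) and in 33.8% of promoters. The E-box CACGTG was found before 1 start, of Lpin2, and in 6.02% of promoters. The sterol regulatory element TCACNCCAC was found before 0 of the 11 starts and in 1.05% of promoters, which says only that these letters are not in these windows.

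Gpam, which codes for the enzyme of the first acylation, had log2 levels of 10.32, 10.26 and 10.26 in the control group, 10.51, 10.46 and 10.83 in the LCN13 group, 10.62, 10.79 and 10.91 in the TSC22D4 group, and 10.55, 10.45 and 10.67 in the combined group. All 9 arrays with a gene-directed shRNA were above the 3 control arrays. Differences from control were 0.49 with TSC22D4 shRNA (1.41-fold, interval 0.26 to 0.72, adjusted p = 0.0643), 0.32 with LCN13 shRNA (interval 0.09 to 0.55, adjusted p = 0.224) and 0.28 with both (interval 0.04 to 0.51, adjusted p = 0.339). These comparisons share the control arrays, and none passed. The LCN13 difference was 0.20 without LCN13 replicate 8 and 0.55 without replicates 5 and 6. Against control, the TSC22D4 difference passed without LCN13 replicate 8 (adjusted p = 0.0184), although that array is in neither group and the difference stayed at 0.49. The LCN13 arrays enter through the shared estimate of the spread. It was the 1 of 12 single-array fits in which this difference passed, and the adjusted p in these fits ran up to 0.186.

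Interaction, the effect of TSC22D4 shRNA with LCN13 virus present minus its effect without, was most different from 0 for Gpam among the members, at -0.53 (interval -0.86 to -0.21, adjusted p = 0.335 with limma), and was -0.76 without LCN13 replicates 5 and 6 (adjusted p = 0.149). The combined group was thus 0.04 below the LCN13 group (adjusted p = 0.926), while the TSC22D4 group was 0.49 above control. None of the members was called for interaction, against 0.397% of all genes. Their median interaction was -0.15, with 9 of 10 below 0. Pck1 was the exception, at 0.31 (interval -0.59 to 1.22).

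Agpat2 codes for the acyltransferase that makes phosphatidate, and its loss in mice and people is known to cause lack of body fat. Control arrays had log2 levels of 12.93, 12.89 and 12.72, LCN13 arrays of 12.76, 12.83 and 13.06, TSC22D4 arrays of 13.09, 13.16 and 13.16, and combined arrays of 13.10, 13.03 and 13.08. Of the 6 arrays with TSC22D4 virus, 5 lay above all 6 without it, and the exception, combined replicate 14, was 13.03 against 13.06 on LCN13 replicate 8. The difference averaged over LCN13 shRNA was 0.24 (1.18-fold, interval 0.12 to 0.36, adjusted p = 0.0697). Against control it was 0.29 with TSC22D4 shRNA (adjusted p = 0.141) and 0.22 in the combined group (adjusted p = 0.284), and against LCN13 the TSC22D4 group was 0.26 higher (adjusted p = 0.133). None of these passed with arrays weighted alike and limma's default prior. With array weights the adjusted p was 0.0365 against LCN13 and 0.0258 for the averaged effect, which also passed with trended and robust eBayes (0.0314) and among probe sets above the median level (0.0419). Without LCN13 replicate 8 the adjusted p was 0.0404 against control, 0.0303 against LCN13 and 0.0106 for the averaged effect. For each of these it was the 1 of 12 single-array fits that passed. Adjusted p-values in these fits ran up to 0.317 against control, 0.337 against LCN13 and 0.153 for the averaged effect. Without LCN13 replicates 5 and 6 the difference from LCN13 was 0.08 and the averaged effect 0.15.

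Lpin1, Lpin2 and Lpin3 code for the lipins, phosphatidate phosphatases of which lipin 1 is the main form in fat and also acts in the nucleus on transcription. Lpin1 levels were 11.52, 11.37 and 11.27 in the control group, 11.53, 11.53 and 11.75 in the LCN13 group, 11.75, 11.93 and 11.80 in the TSC22D4 group, and 11.82, 11.72 and 11.66 in the combined group. The TSC22D4 and combined arrays were all above the control arrays, and of the LCN13 arrays replicates 5 and 6 lay just above the highest control array and replicate 8 was at 11.75. Lpin1 rose by 0.44 with TSC22D4 shRNA (1.36-fold, SE 0.08, interval 0.26 to 0.63, adjusted p = 0.0415). With both shRNAs the difference was 0.35 (1.27-fold, interval 0.16 to 0.53, adjusted p = 0.0974), and with LCN13 shRNA it was 0.22 (interval 0.03 to 0.40, adjusted p = 0.308). This last difference was 0.14 without LCN13 replicate 8 and 0.37 without replicates 5 and 6. Between TSC22D4 and LCN13 it was 0.22 (adjusted p = 0.208), and averaged over LCN13 shRNA the TSC22D4 effect was 0.29 (interval 0.15 to 0.42, adjusted p = 0.0532). The averaged effect passed without control replicate 1 (0.32, adjusted p = 0.0395) or LCN13 replicate 8 (0.32, adjusted p = 0.0198). These were the 2 of 12 single-array fits in which it passed, and the adjusted p ran up to 0.135.

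The Lpin1 call stood close to the threshold. Of the 12 fits that left out 1 array each, 10 lost it, with adjusted p-values up to 0.144 (without TSC22D4 replicate 11), and the fits without control replicate 1 (0.0305) and without LCN13 replicate 8 (0.0220) kept it. Across these fits the difference stayed between 0.38 and 0.51. With only the control and TSC22D4 arrays in the fit the adjusted p was 0.121. Over the 18728 named genes, those most alike to Lpin1 across the 12 arrays were Tenm4 (r = 0.965), Gstz1 (r = 0.962) and Abca1 (r = 0.925), given as a description of these arrays. Their means followed the order of Lpin1, with Tenm4 at 11.28 in control, 11.44 in LCN13, 11.59 in the combined group and 11.66 in TSC22D4.

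The promoter windows of Lpin1 and Agpat2 are shown beside each other because Lpin1 was the called gene and Agpat2 correlated most strongly with another member. They are the 250 bases before the starts in the RefSeq promoter table (GRCm38.p6), 5′ to 3′ on the minus strand, for Lpin1 chr12:16610967-16611216 with 54.8% G and C, and for Agpat2 chr2:26604418-26604667 with 69.2% G and C. Neither held any of the 4 motifs searched, so no letters are in capitals. The start listed for Lpin1 lies inside the annotated span of the gene and may not be the start used in fat.
Lpin1: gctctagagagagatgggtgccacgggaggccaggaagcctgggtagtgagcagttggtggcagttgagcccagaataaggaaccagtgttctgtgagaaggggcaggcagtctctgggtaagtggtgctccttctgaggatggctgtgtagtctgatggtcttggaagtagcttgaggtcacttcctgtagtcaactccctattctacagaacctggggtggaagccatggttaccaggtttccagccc
Agpat2: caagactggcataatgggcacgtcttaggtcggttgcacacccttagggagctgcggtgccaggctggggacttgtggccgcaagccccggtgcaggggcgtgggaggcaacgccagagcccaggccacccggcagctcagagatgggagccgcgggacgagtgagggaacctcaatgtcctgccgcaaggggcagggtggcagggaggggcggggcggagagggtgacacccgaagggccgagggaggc

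Lpin2 and Lpin3 were the dimmest probe sets of the members, Lpin2 at 7.21 to 7.69 and Lpin3 at 6.53 to 6.92 over the 12 arrays. Lpin3 was 6.69, 6.63 and 6.54 in the control group, 6.60, 6.53 and 6.73 in the LCN13 group, 6.73, 6.92 and 6.90 in the TSC22D4 group, and 6.76, 6.76 and 6.61 in the combined group. The TSC22D4 arrays lay above the control arrays and overlapped the LCN13 and combined arrays. The difference between TSC22D4 and control was 0.23 (interval 0.07 to 0.39, adjusted p = 0.219). Lpin2 showed no such order, at 7.21, 7.36 and 7.48 in the control group, 7.30, 7.69 and 7.50 in the LCN13 group, 7.31, 7.42 and 7.33 in the TSC22D4 group, and 7.22, 7.33 and 7.24 in the combined group. Its groups all overlapped, its difference between TSC22D4 and control was 0.00 (interval -0.21 to 0.22), and its largest difference was -0.23 between the combined and LCN13 groups (adjusted p = 0.427), which was -0.14 without LCN13 replicate 6.

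Dgat1 and Dgat2 code for the unrelated enzymes of the last acylation, and both were among the members that varied least. Dgat2 levels were 13.71, 13.62 and 13.59 in the control group, 13.71, 13.65 and 13.76 in the LCN13 group, 13.80, 13.73 and 13.76 in the TSC22D4 group, and 13.76, 13.62 and 13.80 in the combined group. The whole range was 0.21, and the difference between TSC22D4 and control was 0.12 (interval 0.01 to 0.24, adjusted p = 0.39). Dgat1 was 12.22, 12.07 and 11.93 in the control group, 12.00, 12.10 and 12.14 in the LCN13 group, 12.18, 12.21 and 12.11 in the TSC22D4 group, and 12.21, 12.19 and 12.11 in the combined group. Every group overlapped the controls, and the differences from control were 0.09 (interval -0.06 to 0.25), 0.01 (interval -0.15 to 0.16) and 0.10 (interval -0.06 to 0.25) with TSC22D4, LCN13 and both shRNAs. Values of Dgat2 in particular lie near the top of the scale, where 99.9% of genes were dimmer, and saturation of its probes was not tested.

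Pnpla3 had the widest spread after Pck1, with 0.89 between the lowest and highest array. Levels were 11.90, 11.66 and 11.33 in the control group, 11.62, 11.65 and 11.87 in the LCN13 group, 12.13, 12.21 and 12.10 in the TSC22D4 group, and 12.05, 11.74 and 12.09 in the combined group. The TSC22D4 arrays lay above all other arrays, while the control arrays ran from 11.33 to 11.90. The difference between TSC22D4 and control was 0.52 (1.43-fold, interval 0.20 to 0.84, adjusted p = 0.157), the largest among the members, and it did not pass. Averaged over LCN13 shRNA it was 0.38 (interval 0.16 to 0.61, adjusted p = 0.105), with 5 of 6 arrays above all 6 without TSC22D4 virus and combined replicate 14 as the exception. The combined group was 0.34 above control (adjusted p = 0.419), and 0.19 above it without control replicate 3.

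**Figure D3:**
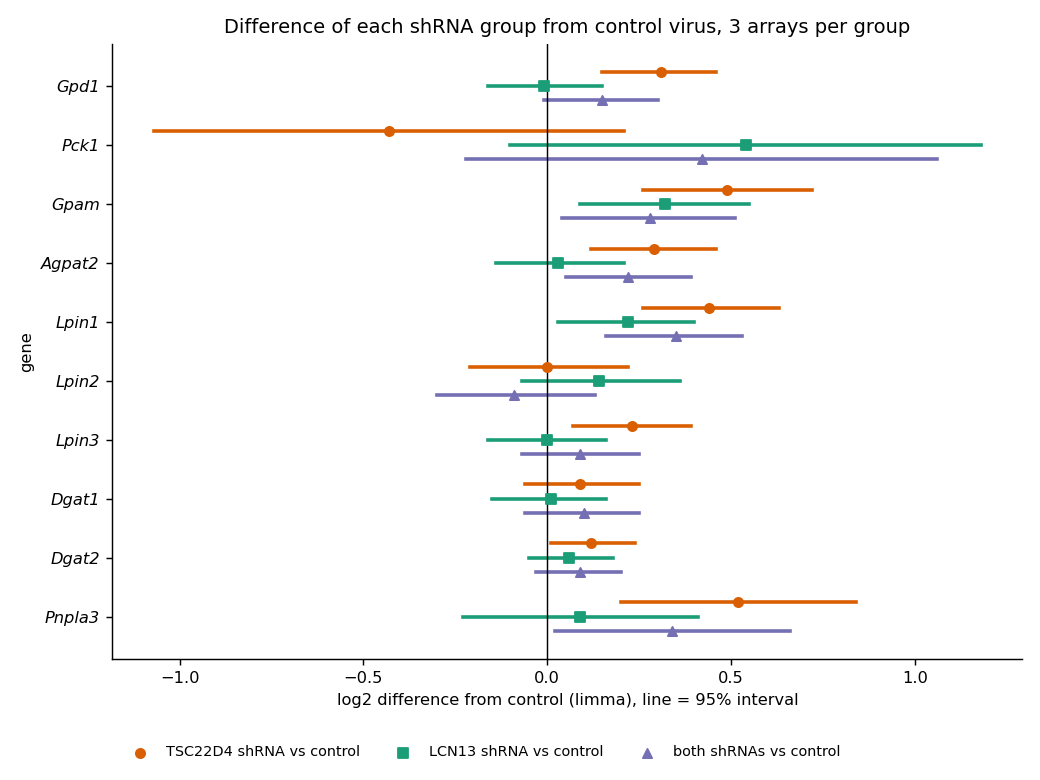
Log2 difference of each gene from the control group, with limma's 95% interval as a line, for the TSC22D4, LCN13 and combined ("both shRNAs") groups, 3 arrays each. The 3 comparisons share the control arrays. The Lpin1 difference with TSC22D4 shRNA (0.44) passed the test over all genes, and the Pck1 intervals are the widest.

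Set side by side, the comparisons with control had member medians of 0.26 with TSC22D4 shRNA, 0.08 with LCN13 shRNA and 0.18 with both, and over all genes each median was 0.00. With LCN13 shRNA 0 of the 10 members were called, against 1.44% of all genes, and 2 had an unadjusted p below 0.05, against 12.6% of all genes. With both shRNAs 0 were called, against 1.34% of all genes, and 4 had an unadjusted p below 0.05, against 11.0% of all genes. Interferon-stimulated genes moved with these contrasts, and 17 of the 19 measured fell in each of these comparisons, with mean deviations of 1.43 to 1.76 on control arrays, -0.55 to -0.34 on arrays of the single shRNAs and -0.74 to -0.66 on combined arrays. The 4 measured red blood cell markers had mean deviations of 0.44 to 0.60 on combined arrays, above the -0.66 to 0.21 on control arrays, the -0.54 to 0.27 on LCN13 arrays and the -0.10 to 0.24 on TSC22D4 arrays, and 0 of them were called. The part of either list in the members' differences was not tested.

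Between the TSC22D4 and LCN13 groups, where the control virus was equal and 0 of the 19 interferon-stimulated genes were called, 0 of the 10 members were called against 1.03% of all genes. The member median was 0.20, and 6 of 10 had an unadjusted p below 0.05 against 17.7% of all genes. Those were Pnpla3 (0.43, adjusted p = 0.166), Gpd1 (0.32), Agpat2 (0.26), Lpin3 (0.23, adjusted p = 0.148) and Lpin1 (0.22), higher with TSC22D4 shRNA, and Pck1 (-0.98), lower. Without LCN13 replicates 5 and 6 the differences were 0.27 for Pnpla3, 0.14 for Gpd1, 0.08 for Agpat2, 0.12 for Lpin3, 0.08 for Lpin1 and -0.82 for Pck1, with adjusted p-values from 0.655 for Gpd1 to 0.93 for Lpin1. Mesothelial markers moved with this contrast, at -0.30 to 0.06 on the TSC22D4 arrays against 0.63, 0.64 and -0.19 on the LCN13 arrays. The mean of the 8 brown adipocyte markers did too, at 0.10 to 0.20 against -0.24 to -0.02, and 0 of these 8 markers were called. Ucp1 (6.06 to 6.36), Cidea (5.92 to 6.05) and Dio2 (5.92 to 6.21) were dim on all 12 arrays. Ppargc1a, on the same list, went the other way (-0.37, adjusted p = 0.425 with limma). The part of the mesothelial and brown adipocyte markers in the members' differences was not tested.

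Adding a gene-directed shRNA to the other gave no called member. The combined group differed from the LCN13 group with a member median of 0.09, and 0 of 10 members were called against 0.00863% of all genes (2 genes). From the TSC22D4 group it differed with a member median of -0.09, and 8 of the 10 members were below 0. There, 0 of all genes (0%) were called by limma, although 1602 had an unadjusted p below 0.05, among them Pck1 (0.86, interval 0.22 to 1.50, adjusted p = 0.619) and Gpd1 (-0.16, adjusted p = 0.706). In both contrasts the amount of control virus differs too. For the TSC22D4 effect averaged over LCN13 shRNA, 0 of 10 members were called against 1.39% of all genes, with a median of 0.19. Without LCN13 replicates 5 and 6 this effect was 0.15 for Gpd1, 0.15 for Agpat2, 0.21 for Lpin1 and 0.31 for Pnpla3. The amount of control virus differs in the averaged effects as well. Of the 19 interferon-stimulated genes, 15 were called lower for the averaged TSC22D4 effect and 17 for the averaged LCN13 effect. The test for any difference over the 4 groups called 0 members against 1.61% of all genes, and its lowest adjusted p-values were 0.0815 for Lpin1 and 0.102 for Gpd1.

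The order of the group means was control, LCN13, combined and TSC22D4 for Agpat2, Lpin1, Dgat2 and Pnpla3. For Gpd1 and Lpin3 it was the same except that LCN13 and control, whose means were 13.25 and 13.26 for Gpd1 and both 6.62 for Lpin3, changed places, and for Gpam the combined group came before LCN13. No neighbours in these orders differed at an adjusted p below 0.05. Over the 12 arrays, 29 of the 45 pairs of members had positive Pearson correlations (-0.48 to 0.93, median 0.64). Pck1 and Lpin2 each had 1 of 9 correlations above 0. With these genes set aside, the 28 remaining pairs were all positive, from 0.34 to 0.93 with a median of 0.74. Setting them aside was not planned, so the shared sign only describes these arrays. Of all 45 pairs of members, 23 passed a permutation test of Pearson's r with adjustment over the 45 pairs, and 20 passed with Spearman's rho. These permutations ignored the groups, so differences between group means count in both numbers. By deviations from the group means, 0 pairs passed. The share of correlated pairs among genes in general was not counted.

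The closest pair was Agpat2 and Pnpla3 (r = 0.93, rho = 0.94, adjusted permutation p = 0.0009 for r), and r was 0.88 without the 2 arrays farthest from the median Agpat2 level. Agpat2 and Gpd1 were nearly as close (r = 0.92, rho = 0.94). The arrays of a group share its effects. After the group means were taken out, the 28 pairs had correlations of 0.00 to 0.85 with a median of 0.59, and 0 of the 45 pairs passed an exact permutation test within groups after adjustment. For Agpat2 and Pnpla3 this r was 0.80 (adjusted p = 0.113 by the exact permutation test). Without control replicate 3 the number of pairs that passed over all arrays was 11 instead of 23. That array had the lowest level of the 12 for Agpat2, Lpin1, Dgat1, Dgat2 and Pnpla3.

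Pck1 and Lpin2 were not among these pairs. The Pck1 correlations with the other 9 members were -0.48 to 0.19, with 1 of 9 above 0, and those of Lpin2 were -0.44 to 0.19. None of these pairs passed. LCN13 replicate 8 had the highest Gpd1, Gpam, Agpat2, Lpin1, Lpin3, Dgat1, Dgat2 and Pnpla3 levels among the LCN13 arrays and the lowest Pck1 level. This array also differed from replicates 5 and 6 in markers of mesothelium (-0.19 against 0.63 and 0.64), liver (0.01 against 0.34 and 0.41) and red blood cells (0.27 against -0.53 and -0.54), whose part was not tested.

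**Figure D4:**
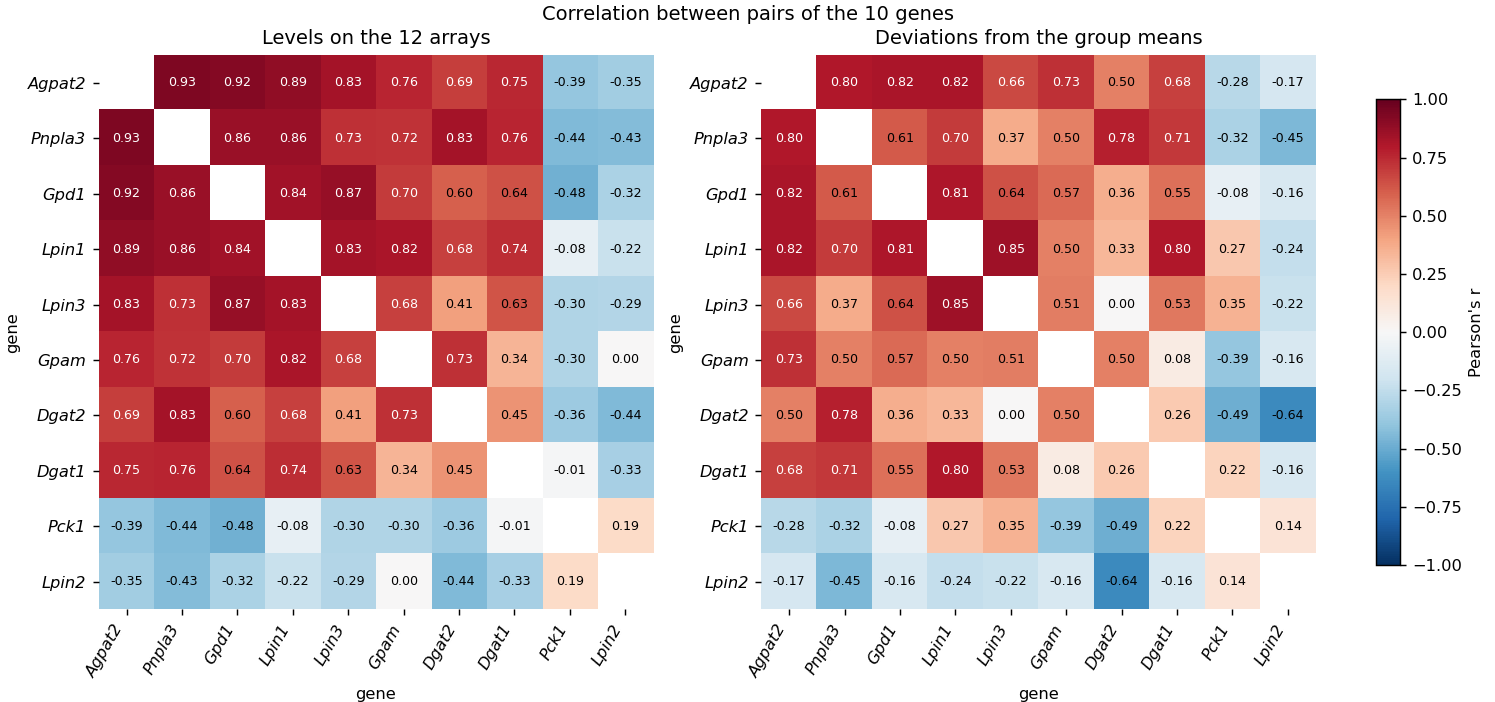
Pearson correlation for each pair of the 10 genes, over the levels on the 12 arrays (left) and over deviations from the group means (right), with r printed in each cell and coloured from -1 (blue) to 1 (red). The 8 genes other than Pck1 and Lpin2 form a block of positive values on the left (0.34 to 0.93), lower on the right (0.00 to 0.85), and Pck1 and Lpin2 stand outside it. This grouping was not planned and describes these arrays.

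Genes of the same pathway outside the 10 members were counted by list. Of 14 other acyltransferases and phosphatidate phosphatases, all measured, 0 were called in any comparison, and their median difference between TSC22D4 and control, where 1.17% of all genes were called, was 0.03. The widest were Mogat2, a monoacylglycerol acyltransferase, at 0.64 (adjusted p = 0.267), and Gpat3, a microsomal glycerol 3-phosphate acyltransferase, at 0.47 (adjusted p = 0.328). Mogat2 was 7.24, 6.94 and 6.80 in the control group and 7.49, 8.05 and 7.37 in the TSC22D4 group, without overlap. Gpat3 was 9.41, 9.27 and 9.00 in control and 9.57, 9.85 and 9.67 with TSC22D4 shRNA, also without overlap. Both genes were picked for the size of this difference, so the lack of overlap adds no support. Of the 14 genes, 8 were above 0 and 6 below in this comparison.

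Of 18 other genes that supply glycerol 3-phosphate or its precursors, 15 were measured and 0 were called in any comparison, with a median of -0.03 between TSC22D4 and control (1.17% of all genes called). Slc25a10, the mitochondrial dicarboxylate carrier, differed by 0.28 (adjusted p = 0.156), and the glycolytic enzyme gene Pgk1 by 0.25 (adjusted p = 0.0817). The Pgk1 probe set was dim, at 6.51, 6.56 and 6.46 in control and 6.72, 6.88 and 6.69 with TSC22D4 shRNA. The median of the whole table was 6.31, and how well this probe set reports Pgk1 RNA was not tested. Of 11 regulators of the pathway, all measured, 1 was called with TSC22D4 shRNA, against 1.17% of all genes. This was Srebf1, which codes for SREBP1, with 9.78, 9.88 and 9.63 in the control group, 10.01, 9.90 and 10.12 in the LCN13 group, 10.36, 10.16 and 10.18 in the TSC22D4 group, and 10.11, 10.01 and 10.05 in the combined group. It rose by 0.47 (SE 0.08, adjusted p = 0.022), and all TSC22D4 arrays were above all arrays of the other groups. The call was lost in 5 of the 12 fits that left out 1 array each (adjusted p up to 0.0788), namely those without control replicate 1 or 3 or any of the TSC22D4 arrays, and was 0.121 with only the control and TSC22D4 arrays in the fit. Ppargc1a, a coactivator known to raise Pck1 transcription, was -0.41 from control with TSC22D4 shRNA (adjusted p = 0.547). Its control levels of 6.57, 6.62 and 7.53 spanned the TSC22D4 levels of 6.50, 6.64 and 6.33 in part.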

How the data were processed

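RNA of abdominal fat from 12 mice in 4 groups of 3 was labelled and hybridised to Affymetrix arrays, per the labels' protocols. The deposited table holds log2 values from RMA, as the submitters' processing notes say, with 1 value for each probe set on each array. Version and settings of RMA, definitions of the probe sets and the build are not given in the sources here. The lowest value was 5.62, the median 6.31 and the highest 14.4. Sorted columns differed by at most 0.00188, so changes shared by most genes are removed.

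Of 25206 probe sets, 23185 carried 1 gene symbol and were tested, and 2021 carried none. limma 3.58.1 (R 4.3.3) was fitted with lmFit and eBayes to all 12 arrays with a mean per group, two-sided, with Benjamini-Hochberg adjustment over all 23185 genes in each of 10 comparisons. The script was tested on simulated data. All members were named; from the other pathway lists, each called gene and the 2 with the largest TSC22D4 difference from control; and for each called member the 3 genes most alike. The members and lists were chosen with earlier results of these data known. Correlations used 100000 permutations, and those of deviations from group means all 1296 arrangements within groups.

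Alternatives were array weights, trended and robust eBayes, probe sets above the median level, centring on the probe sets above the 75th percentile of level, only the groups compared, and each array left out. Leaving out LCN13 replicates 5 and 6 together was chosen after seeing the data. The labels describe separate animals. The number of arrays limits the precision. Promoter sequences came from a RefSeq table (GRCm38.p6).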

Additional observations from a re-analysis of the deposited data

How the results depend on the processing

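Of 37 gene differences followed through 657 alternative fits, 605 kept direction and side of the threshold, 17 lost the call (10 single-array fits and the 2-group fit for Lpin1, the rest for Srebf1), 34 gained one, and 1 reversed. That was Gpd1 between the combined and LCN13 groups, 0.16 with all arrays and -0.01 without LCN13 replicates 5 and 6. Centring on the brightest probe sets (above the 75th percentile) changed no call of a member. With TSC22D4 shRNA against control, the number of members called was 1, and it was 3 with array weights, 3 with trended and robust eBayes, 2 above the median level, 0 with only the 2 groups, 3 without LCN13 replicates 5 and 6, and 0 to 4 with 1 array left out (4 without LCN13 replicate 8). The other counts were 0 with the main settings. Array weights gave 1 for both shRNAs against control, 3 for TSC22D4 against LCN13, 4 for the averaged TSC22D4 effect and 2 for any difference over the 4 groups. Over all genes the same weights raised the counts too, from 311 to 518, 239 to 1178, 323 to 810 and 374 to 935. Trended and robust eBayes gave 1, 3 and 2 for the last 3 of these. The filter on dim probe sets gave 4 for the averaged TSC22D4 effect and 1 for any difference. With 1 array left out, the counts were 0 to 2 for TSC22D4 against LCN13, 0 to 4 for the averaged TSC22D4 effect, 0 to 1 for the averaged LCN13 effect (1 without combined replicate 16) and 0 to 3 for any difference. The members called with array weights against control were Gpam, Gpd1 and Lpin1. Over all genes, the count for TSC22D4 against control was 272, and it was 447 with array weights, 142 with only the 2 groups, and 153 to 350 with 1 array left out. The number of correlated pairs was 23, and it was 0 by deviations from group means and 11 to 24 with 1 array left out. Fewer genes tested, fewer arrays or another spread estimate are part of these alternatives by construction; otherwise the cause was not tested. No paired analysis was possible because the groups share no replicate number. The number of arrays limits the precision.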
